A study of Mus musculus with 12 samples.

Results

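Hand1, Hand2 and Prdm16 are 3 of the 26190 genes measured by RNA-seq in chambers of the embryonic mouse heart and in the corresponding parts of heart organoids. They were taken by gene symbol from the expression table, with earlier results of these data known, and all 3 passed the filter on low counts in every comparison. Embryonic hearts of the C57BL/6 strain at stage E11.5 of embryonic development (E11.5H) were dissected into atria (n = 3) and ventricles (n = 3). Heart organoids (HOs) are beating structures grown from aggregates of mouse embryonic stem cells on a gelled laminin-entactin complex with FGF4, to which BMP4, BIO and LIF were added in the later part of the culture. They were dissected on day 13 into an atrium-like part (n = 3) and a ventricle-like part (n = 3). The HO libraries are labelled C57BL/6. The study's methods also name stem cells of an F1 hybrid with JF1, and which line gave which library was not stated. All samples were wild type. The study's methods name 3 HOs, as biological triplicates, that were dissected into both parts, so the atrium-like and ventricle-like libraries come from the same HOs. The labels do not tie a library to an HO, and the number of embryos in a library was not stated, so the p-values measure the spread between these libraries.

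HAND1 and HAND2 are basic helix-loop-helix (bHLH) transcription factors that bind DNA as dimers with the broadly expressed E proteins. In the forming heart Hand1 is best known as a gene of the outer curvature and the left ventricle, and Hand2 as a gene of the second heart field, the right ventricle and the outflow tract that is also used in neural crest cells. PRDM16 is a zinc finger protein with a PR domain, best known for directing brown fat identity, that is also required in ventricular muscle for the compact wall of the left ventricle.

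Library totals lay between 23971258 and 30540993 fragments, so each library counted the members at similar depth. The embryonic chambers were described with chamber marker lists, counted by edgeR's quasi-likelihood test. These lists were chosen with earlier results of these data known, so the counts are no independent check of the labels. Of 7 ventricular markers (such as Myl2 and Irx4) 6 were called higher in the ventricles, and 10 of 10 atrial markers (such as Sln and Nr2f2) were called higher in the atria. Over all genes tested 1.97% were called higher in the ventricles and 2.92% higher in the atria. In the HOs 0 of these 7 and 0 of these 10 genes were called, as was so for all 15703 genes tested (0%). The summed level of the atrial list ran from 194 to 485 FPKM in atrium-like parts and from 514 to 1708 FPKM in ventricle-like parts. FPKM count fragments relative to the length of a gene's exons and to the mapped total of its library. The summed level of the ventricular list ran from 44.1 to 168 FPKM in atrium-like parts and from 176 to 773 FPKM in ventricle-like parts. Both chamber lists were thus lower in every part labelled atrium-like than in any part labelled ventricle-like. The summed level of 16 sarcomere and calcium handling genes shared by all heart muscle was 14551 to 17080 FPKM in E11.5H, 310.3 to 1211 FPKM in atrium-like parts and 1814 to 4223 FPKM in ventricle-like parts. A list of hepatocyte and endoderm genes did the opposite, with at most 17.5 FPKM in E11.5H and between 110.1 and 14004 FPKM in the HO libraries. In these bulk samples, fewer cells of a type and less RNA per cell cannot be told apart.

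Hand1 (chromosome 11, 57828713 to 57832147, minus strand, GRCm38) and Prdm16 (chromosome 4, 154316125 to 154636873, minus strand) lay far from one another and from Hand2 (chromosome 8, 57320983 to 57324517, plus strand). Hand1 and Hand2 are compact genes of 3435 and 3535 bases, whereas Prdm16 spans 320749 bases. The 250 bases before the starts of Hand2 and Prdm16 are printed here from RefSeq (GRCm38.p6), because each gene has a measured non-coding neighbour that starts in or close to this stretch. Capitals mark matches to the E-box letters CANNTG, the motif class bound by bHLH dimers, and to GATA or its reverse complement TATC.
Hand2, chr8:57320733-57320982, plus strand: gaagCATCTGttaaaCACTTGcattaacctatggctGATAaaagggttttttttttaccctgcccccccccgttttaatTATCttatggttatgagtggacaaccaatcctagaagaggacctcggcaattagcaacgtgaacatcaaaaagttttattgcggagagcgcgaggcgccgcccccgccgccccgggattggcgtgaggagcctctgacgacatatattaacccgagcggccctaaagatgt
Prdm16, chr4:154636874-154637123, minus strand: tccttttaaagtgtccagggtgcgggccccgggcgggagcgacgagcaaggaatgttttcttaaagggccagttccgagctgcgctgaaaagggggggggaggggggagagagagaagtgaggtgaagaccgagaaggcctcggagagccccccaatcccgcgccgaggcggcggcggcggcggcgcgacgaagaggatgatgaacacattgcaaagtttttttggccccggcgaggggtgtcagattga

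The Hand2 window held E-box letters at 246 and 235 bases before the start, and GATA letters at 214 and 171 bases before it, none overlapping another. The Prdm16 window held neither motif on either strand and was richer in G and C (62.4% against 49.2%). Of 32851 RefSeq promoter windows of this length, 66.2% held an E-box match and 53.6% a GATA match, so the matches in the Hand2 window are common ones.

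In E11.5H, Hand1 was the member with the widest gap between chambers. The ventricles held 40.1, 42.0 and 36.2 FPKM of Hand1, and the atria 0.789, 0.172 and 0.6005 FPKM, from 53, 11 and 37 fragments. Every ventricular library lay far above every atrial library, which was so in some measure for 11.8% of genes, and the atrial values rest on few fragments. The fitted difference of ventricles over atria was a log2 fold change of 6.30 (SE 0.32, 95% interval 5.59 to 7.001), or 78.6-fold, with an adjusted p of 1.56e-06 by edgeR. Only 11 of 14536 genes tested had a larger log2 fold change in the direction of the ventricles.

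Prdm16 was the second member called in this comparison. It stood at 1.90, 1.54 and 1.85 FPKM in the ventricles and at 0.184, 0.210 and 0.175 FPKM in the atria. Both chambers were tight and did not overlap, and the transcript, although low per length, was counted with 49 to 61 fragments in each atrial and 429 to 525.5 fragments in each ventricular library. Its log2 fold change of ventricles over atria was 3.29 (SE 0.21, 95% interval 2.82 to 3.76), or 9.75-fold, with an edgeR adjusted p of 6.63e-06, and it ranked 49th of the genes tested.

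Hand2 did not follow Hand1 and Prdm16. The ventricles held 11.48, 10.6 and 10.4 FPKM of Hand2 and the atria 11.2, 9.18 and 9.34 FPKM. The chambers overlapped and the levels of all 6 embryonic libraries were alike. The log2 fold change of ventricles over atria was 0.20 (SE 0.13, 95% interval -0.09 to 0.48), with an edgeR adjusted p of 0.370, and both bounds of the interval lie within the fold of 1 log2 unit needed for a call. A gene is called here at an adjusted p under 0.05 with an absolute log2 fold change over 1. By this rule 2 of the 3 members were called higher in the ventricles, against 1.97% of the genes tested (4.9% in either direction). The members were chosen with earlier results of these data known, and the study names Hand1 as a ventricular gene in these chambers. This count is therefore a description and no independent support. The part that other cell types played in these differences was not tested. The mean level of 7 epicardial genes, given as log2 CPM (counts scaled to a common library size), was 5.54 to 5.72 in the atria and 4.50 to 4.95 in the ventricles, and that of 10 endothelial genes was 5.91 to 6.12 and 5.86 to 5.97. Of 7 erythroid genes 3 were called higher in the ventricles, and the summed level of all 7 was 7302 to 14291 FPKM in the atria and 11474 to 72025 FPKM in the ventricles, highest in the third ventricular library. Of 6 macrophage genes 4 were called lower in the ventricles (all 6 summed to 22.3 to 42.1 FPKM in the atria and 9.48 to 12.1 FPKM in the ventricles), as were 3 of 4 tested genes of gut mesenchyme. Hand1 and Prdm16 were called with each embryonic library left out in turn.

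**Figure D1:**
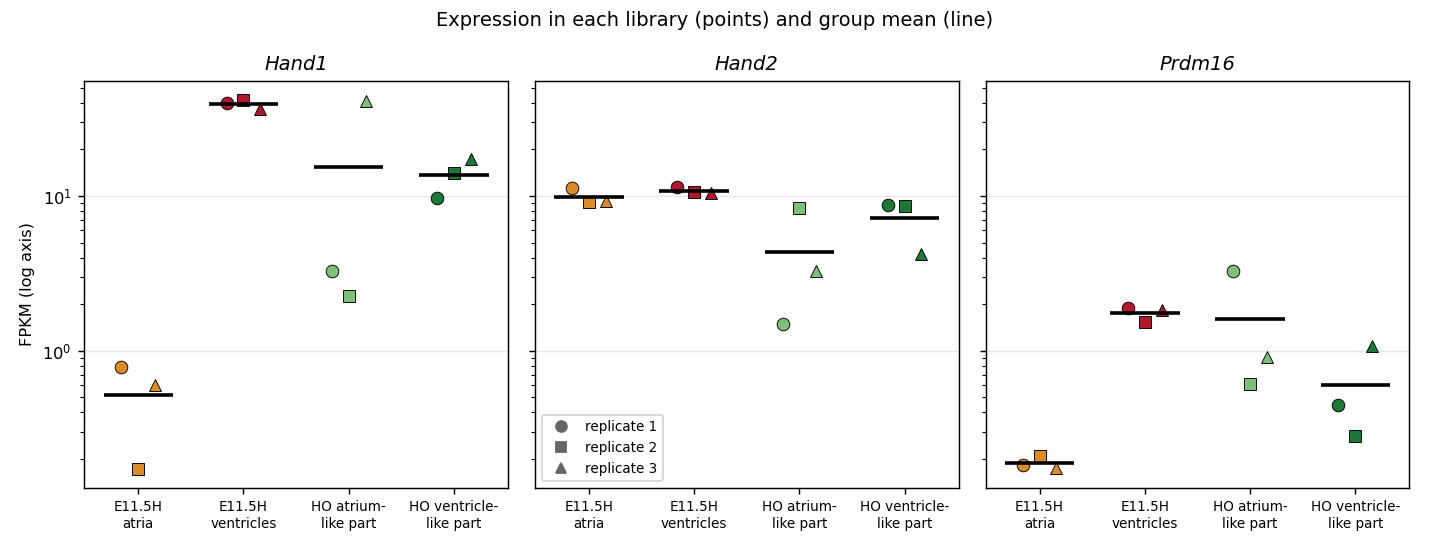
FPKM of Hand1, Hand2 and Prdm16 on a log axis, with a point for each library (shape gives the replicate number) and a line at the mean of each group of 3. Hand1 and Prdm16 separate the embryonic chambers and Hand2 does not, while the HO parts overlap for all 3 genes and the highest HO values of Hand1 (40.9 FPKM) and Prdm16 (3.28 FPKM) come from different atrium-like libraries.

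In the HOs none of the 3 members was called between the parts, and for Hand1 and Prdm16 single libraries carried the values. Hand1 was at 9.70, 13.996 and 17.4 FPKM in the ventricle-like parts and at 3.30, 2.25 and 40.9 FPKM in the atrium-like parts. The third atrium-like library thus had the highest HO level, at the level of the embryonic ventricles, and the other two atrium-like libraries the lowest, below every ventricle-like library. The mean was 13.7 ± 3.86 FPKM in ventricle-like and 15.5 ± 22.0 FPKM in atrium-like parts (SD, n = 3 each). Fitted as ventricle-like over atrium-like, the log2 value was -0.36 (SE 1.09, 95% interval -3.02 to 2.30), with an edgeR adjusted p of 0.936. Without the third atrium-like library it was 2.07, with an adjusted p of 0.916 in edgeR's test, so this library set the direction. The study describes Hand1 as higher in the ventricle-like part, as in the embryonic ventricles. With all libraries of both parts, neither the means nor the fit showed this.

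Hand2 stood at 8.79, 8.61 and 4.25 FPKM in the ventricle-like parts and at 1.49, 8.32 and 3.29 FPKM in the atrium-like parts. The lowest 3 values came from the first atrium-like library and from the third library of either part, and the parts overlapped. Its log2 fold change of ventricle-like over atrium-like parts was 0.65 (SE 0.60, 95% interval -0.82 to 2.11), with an edgeR adjusted p of 0.796. Prdm16 was at 0.450, 0.281 and 1.08 FPKM in the ventricle-like parts and at 3.28, 0.610 and 0.913 FPKM in the atrium-like parts. Here the first atrium-like library was highest and above every embryonic ventricle, and the second ventricle-like library lowest. The Prdm16 difference had the sign opposite to that of the embryo, a log2 fold change of -1.71 (SE 0.90, 95% interval -3.90 to 0.48), and it did not pass the test (edgeR adjusted p of 0.750). Without the first atrium-like library it was -0.41.

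All 3 members overlapped between the parts, where 13.3% of genes did not. Of 15703 genes tested between the HO parts, 0% were called by edgeR's quasi-likelihood test. At an unadjusted p under 0.05 the count was 889 genes, or 5.66%, and DESeq2's Wald test called 59 and limma-voom 0. The biological coefficient of variation, the typical relative spread between replicates, was 0.677 in the HO comparison and 0.211 in E11.5H. The absence of a call for the members is therefore no measure of equal levels: the interval of Hand1 in the HOs is over 5 log2 units wide.

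**Figure D2:**
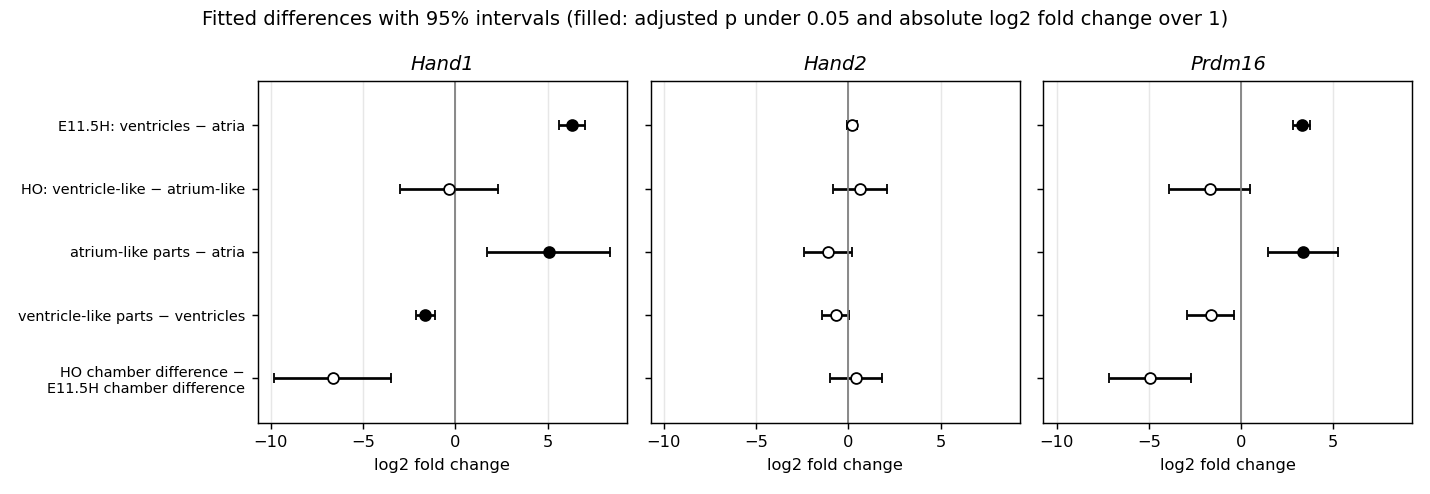
Fitted log2 fold changes of the 3 members with 95% intervals in the chamber comparisons of E11.5H and HO, in the comparisons of HO parts with embryonic chambers, and for the difference between both chamber differences. Filled points passed the rule on adjusted p and fold change. Hand1 and Prdm16 in E11.5H lie far to the right with short intervals, and every HO chamber interval crosses 0.

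Whether the chamber difference itself differed between HO and E11.5H was tested as an interaction over all 12 libraries. For Hand1 the HO difference minus the E11.5H difference was -6.65 on the log2 scale (SE 1.42, 95% interval -9.80 to -3.50), with an unadjusted p of 0.00078 in edgeR's quasi-likelihood model and an adjusted p of 0.148. For Prdm16 it was -4.96 (SE 1.003, 95% interval -7.18 to -2.73), with an unadjusted p of 0.000526 and an adjusted p of 0.136 in the same edgeR model. Neither passed the adjusted threshold. Hand2 had an interaction of 0.42 (SE 0.64) with an edgeR adjusted p of 0.831. Over all genes 25 of 16494, or 0.152%, were called, and 11.7% had an unadjusted p under 0.05. Both values of Hand1 and Prdm16 depended on the choice of model and on 1 library: DESeq2's Wald test gave adjusted p of 2.44e-05 and 9.86e-05, and without the second atrium-like library edgeR gave -7.18 (adjusted p of 0.0269) and -5.40 (adjusted p of 0.0282). These changes were not particular to the members. Over all genes DESeq2 called 455 interactions, and edgeR without that library called 216, in place of 25.

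The HO parts were next compared with the embryonic chamber of the same name. These comparisons use the same libraries as those above and are not independent of them. In the atrium-like parts Hand1 and Prdm16 were called higher than in the atria, against 16% of 15418 genes called higher and 24.8% called in either direction. Hand1 was higher by a log2 fold change of 5.05 (SE 1.38, 95% interval 1.74 to 8.37) with an edgeR adjusted p of 0.0351. Every atrium-like library, at 2.25 FPKM or more, was above every atrial library, at 0.789 FPKM or less. Without the third atrium-like library the value was 2.60 and the call was lost (edgeR adjusted p of 0.0713), and it was lost too without any of the atrial libraries (0.104 to 0.116). Prdm16 was higher by 3.35 (SE 0.78, 95% interval 1.47 to 5.23; edgeR adjusted p of 0.0218), with the lowest atrium-like library at 0.610 and the highest atrial library at 0.210 FPKM. This call was likewise lost without any of the atrial libraries (edgeR adjusted p of 0.0834 to 0.0874), and without the first atrium-like library the value was 2.10. With 1 atrial library left out, 1662 to 1726 genes were called over all genes, in place of 3821. The fitted values were then 4.62 to 5.50 for Hand1 and 3.28 to 3.40 for Prdm16. Hand2 was lower in every atrium-like than in every atrial library, with a log2 fold change of -1.09 (SE 0.53, 95% interval -2.37 to 0.19), and did not pass the test (edgeR adjusted p of 0.162). Groups without overlap were common in this comparison, at 24.1% of genes with the atrium-like parts higher and 30.3% with them lower, and 8.81% of genes were called lower. Without the second atrium-like library, the one nearest to the embryo, Hand2 stood at -1.83 with an edgeR adjusted p of 0.0101.

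In the ventricle-like parts all 3 members were lower in every library than in any embryonic ventricle, which was so for 21.1% of 15094 genes. Hand1 was the member called, with a log2 fold change of -1.62 (SE 0.22, 95% interval -2.15 to -1.09) and an edgeR adjusted p of 0.00516, where 7.35% of genes were called lower (18.9% in either direction). This is a 3.07-fold lower level. Prdm16 had a log2 fold change of nearly the same size, -1.64 (SE 0.52, 95% interval -2.91 to -0.37), but a wider spread and an edgeR adjusted p of 0.0597. Among its ventricle-like libraries the third was nearest to the ventricles, and without it the difference was -2.38 with an edgeR adjusted p of 0.00514. Hand2 was at -0.68 (SE 0.30, 95% interval -1.40 to 0.05) with an edgeR adjusted p of 0.135.

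The order of the group means was therefore particular to each gene. Hand1 ran from the ventricles (39.4 ± 2.95 FPKM) through the atrium-like and ventricle-like parts to the atria (0.521 ± 0.316 FPKM). The atrium-like parts overlapped both the ventricles and the ventricle-like parts, and the atria lay apart. Hand2 ran from the ventricles (10.8 ± 0.568 FPKM) and atria (9.91 ± 1.13 FPKM) to the ventricle-like (7.22 ± 2.57 FPKM) and atrium-like parts (4.36 ± 3.54 FPKM). Ventricles overlapped atria and both HO parts overlapped each other, while the lowest atrial library (9.18 FPKM) was just above the highest ventricle-like one (8.79 FPKM). Prdm16 ran from the ventricles (1.76 ± 0.194 FPKM) and atrium-like parts (1.60 ± 1.46 FPKM) to the ventricle-like parts (0.603 ± 0.420 FPKM) and the atria (0.190 ± 0.0183 FPKM; SD, n = 3 for each group). Its atrium-like parts overlapped both neighbours and its atria overlapped none.

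HO libraries held less heart muscle RNA than E11.5H, so the members were also set against the mean of the 16 heart muscle genes in the same library, on the log2 CPM scale. These positions are not per length and compare libraries, not genes. With them the sign of the comparison of ventricle-like parts with ventricles turned for each member. Hand1 stood at -3.53 relative to the muscle mean in the ventricles and at -2.79 in the ventricle-like parts (fitted difference 0.83, edgeR adjusted p of 0.0769). For Hand2 the mean positions were -5.16 in the ventricles and -3.51 in the ventricle-like parts (fitted difference 1.93, edgeR adjusted p of 0.0139), and for Prdm16 they were -5.83 and -5.28 (fitted difference 0.55, edgeR adjusted p of 0.299). The highest positions were 0.322 for Prdm16 in the first atrium-like library and -0.0249 for Hand1 in the third, far above the other atrium-like libraries of each gene. This scaling moved the median of all genes by 3.71 in the atrial and by 2.50 in the ventricular comparison, and the 6 fitted member differences against E11.5H moved in the same direction, by 2.19 to 4.28.

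The 3 members did not peak in the same HO library, and neither did the marker lists of other cell types. Prdm16 was highest at 5.32 log2 CPM in the first atrium-like library, which was also the highest of 6 in the mean of 9 gut epithelium genes (8.78) and of 10 hepatocyte and endoderm genes (9.78) and the lowest in that of the heart muscle genes (4.999). It was lowest at 1.41 in the second ventricle-like library, which was the lowest in both of those lists (2.83 and 1.04). In E11.5H these lists did not exceed 0.66 and -0.02. The third ventricle-like library, next highest in Prdm16 at 3.42, had the highest heart muscle mean of the HO libraries (8.33). It was also high in the gut epithelium list (8.07) and in the hepatocyte and endoderm list (8.92). Hand2 was lowest at 2.25 log2 CPM in the first atrium-like library, which had the lowest mean of 10 neural crest and autonomic genes (-1.86) and a fibroblast list mean of 8.12. Its 3 highest libraries, at 4.36 to 4.49, were also the 3 highest in the neural crest list (2.76 to 4.67) and in the fibroblast list (9.34 to 10.1). They were likewise the 3 highest in the macrophage list (5.23 to 5.96) and in a smooth muscle list (6.53 to 7.03). This order was therefore not particular to neural crest and fibroblast genes, though the heart muscle and epicardial lists did not share it. Hand1 was highest at 6.604 in the third atrium-like library, where the trophoblast list of 5 genes (a lineage in which Hand1 is a known regulator) stood at 1.89. In the second ventricle-like library that list was higher, at 2.56, with Hand1 at 4.83. The part of these cell types in the member levels was not tested.

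**Figure D3:**
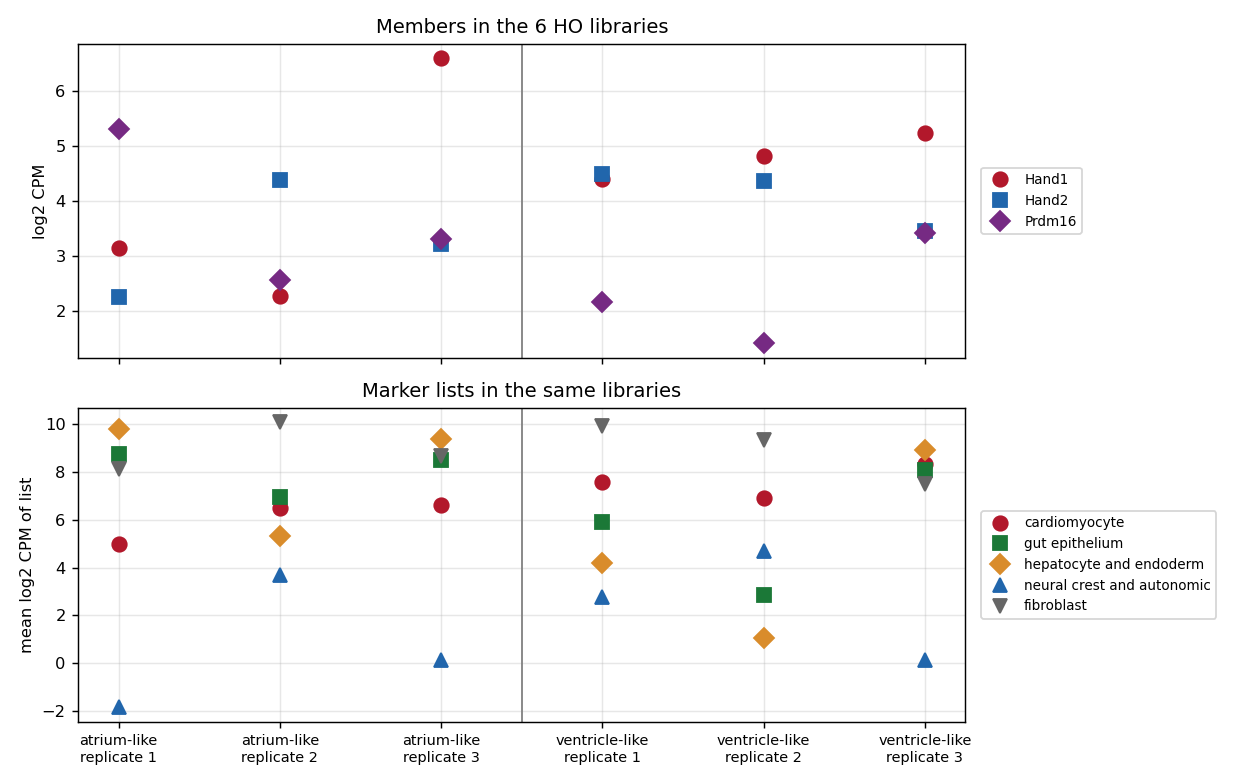
Levels in log2 CPM of the 3 members (top) and mean log2 CPM of 5 marker lists (bottom) in each of the 6 HO libraries, with a vertical line between the parts. Prdm16 is highest and lowest in the same libraries as the gut epithelium and the hepatocyte and endoderm lists, while Hand2 is lowest where the neural crest list is lowest.

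Hand1 and Hand2 were also compared within each library. The log2 ratio of Hand1 to Hand2 (each as FPKM + 0.1) was 1.80, 1.98 and 1.79 in the embryonic ventricles and -3.67, -5.09 and -3.75 in the atria. Hand1 was thus the more abundant of the pair per length in every ventricular library and Hand2 in every atrial one. The means differed by 6.02 with an exact permutation p of 0.1 (two-sided), the smallest that 3 against 3 libraries can give. The size of this difference depends on the added constant, since atrial Hand1 is low, and was 4.63 with FPKM + 1. In the HOs the ratio was 0.142, 0.694 and 2.01 in ventricle-like and 1.10, -1.84 and 3.60 in atrium-like parts. Hand1 exceeded Hand2 in 5 of 6 HO libraries, the exception being the second atrium-like library, and the part means of 0.95 each gave a difference of -0.00466 (exact permutation p of 1, two-sided).

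Hand2 and Prdm16 each have a non-coding gene close to their start. Hand2os1 (chromosome 8, 57304261 to 57320859, minus strand) starts 123 bases from Hand2 and runs away from it, so its start lies inside the window printed above. It was at 25.5, 21.7 and 26.0 FPKM in the atria and at 22.7, 21.9 and 20.8 FPKM in the ventricles, and did not separate the chambers (log2 fold change -0.09, SE 0.13, edgeR adjusted p of 0.717), as Hand2 did not. In the atrium-like parts it had 1.17, 10.7 and 6.98 FPKM, and in the ventricle-like parts 7.43, 13.8 and 6.77 FPKM. The first atrium-like library was the lowest for both genes of the pair. Against the ventricles Hand2os1 fell in the ventricle-like parts, with a log2 fold change of -1.32 (SE 0.32, edgeR adjusted p of 0.0261).

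The transcript 5930403L14Rik (chromosome 4, 154630691 to 154636367) lies on the strand of Prdm16, starts 506 bases downstream of the Prdm16 start and shares no base with its annotated exons in GENCODE M21, so it sits in intronic sequence of Prdm16. It had 5.84, 5.22 and 5.43 FPKM in the ventricles and 0.0697, 0.335 and 0.179 FPKM in the atria. The chambers did not overlap, and the log2 fold change of ventricles over atria was 4.90 (SE 0.37, edgeR adjusted p of 2.31e-05), against 3.29 for Prdm16. In the HOs it had 0.673, 0.814 and 1.27 FPKM in ventricle-like and 1.30, 0.8003 and 0.406 FPKM in atrium-like parts. Against the ventricles it fell in the ventricle-like parts, with a log2 fold change of -2.67 (SE 0.28, edgeR adjusted p of 0.00266). In the first atrium-like library, where Prdm16 was above its ventricular level at 3.28 FPKM, 5930403L14Rik stayed at 1.30 FPKM and thus below every embryonic ventricle. Because both lie on the same strand, fragments from unspliced Prdm16 RNA and from 5930403L14Rik cannot be told apart here.

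**Figure D4:**
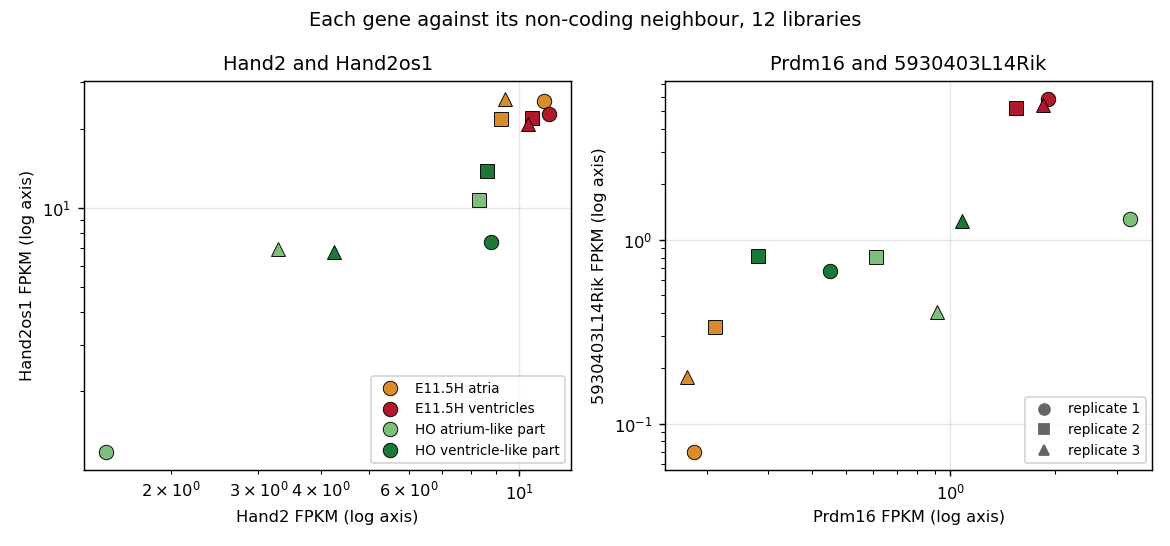
FPKM of Hand2 against Hand2os1 (left) and of Prdm16 against 5930403L14Rik (right) on log axes, with a point for each of 12 libraries. The embryonic chambers form one cloud on the left and separate on the right, and the first atrium-like library is lowest for both Hand2 and Hand2os1 but highest for Prdm16.

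None of the other neighbours was called between the embryonic chambers. Sap30l, 18097 bases from Hand1, had a log2 fold change of ventricles over atria of 0.52 (SE 0.13) with an edgeR adjusted p of 0.0278, under the fold needed for a call. Larp1, on the other side of Hand1 at 176916 bases, had 0.21 (SE 0.08; edgeR adjusted p of 0.112), and 5033428I22Rik, 7917 bases from Hand2, had 1.16 (SE 0.49; edgeR adjusted p of 0.156). Arhgef16, 16229 bases from Prdm16, stood at 0.768 ± 0.168 FPKM in the atria and 0.493 ± 0.493 FPKM in the ventricles, and at 32.0 ± 27.4 FPKM in the atrium-like parts (SD, n = 3 each), where it was called higher than in the atria (log2 fold change 5.65, SE 0.92, edgeR adjusted p of 0.00817). In the ventricle-like parts it stood at 11.1 ± 14.4 FPKM (SD, n = 3), with 27.5 FPKM in the third library. There it was not called against the ventricles (log2 fold change 4.41, SE 1.54, edgeR adjusted p of 0.0769). Actrt2 was at 0 in every library, and Gm13133, antisense within Prdm16, was at 0 in all HO libraries and too low for a test.

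Beside the members, 8 lists of related genes were counted in the embryonic chambers, each against the 1.97% of genes called higher and the 2.92% called lower in the ventricles. Among 9 other regulators of ventricular muscle, 6 were called higher in the ventricles and 0 lower, with a median log2 fold change of 2.43 against -0.01 over all genes tested. They were Irx4 (5.56, SE 0.56), a ventricular homeobox repressor of atrial genes, Irx2 (4.74, SE 0.55), Irx1 (4.34, SE 0.83), Irx3 (2.77, SE 0.22), Cited1 (2.43, SE 0.12) and the Notch target Hey2 (1.94, SE 0.12). By value Hand1 exceeded all 6, and Prdm16 lay between Irx1 and Irx3. Of 8 genes of the ventricular wall and its trabeculae 4 were called higher (the peptides Nppb at 1.71, SE 0.33, and Bmp10 at 1.501, SE 0.15, Has2 at 1.40, SE 0.33, and Slit2 at 1.16, SE 0.14) and 0 lower.

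Genes that work with or upstream of the HAND factors were counted in the same way. The E protein partners Tcf3, Tcf4 and Tcf12 were called in 0 of 3 cases, with log2 fold changes of -0.02, -0.06 and -0.24. Of the 4 Id genes, whose products sequester E proteins, Id4 was lower in the ventricles (-1.94, SE 0.20, edgeR adjusted p of 0.000153) and Id1, Id2 and Id3 were not called. Of 6 other bHLH genes of the Twist and Tcf21 group Msc was lower (-4.90, SE 1.15, edgeR adjusted p of 0.0189). Of 9 upstream factors and ligands Tbx5, an atrial marker itself, was lower (-1.66, SE 0.09, edgeR adjusted p of 2.85e-06), and Gata4 (0.01), Mef2c (0.16) and Nkx2-5 (0.17) were not called. Of 14 other PRDM genes 10 could be tested, and Mecom, the relative closest to Prdm16, was the one called, higher in the ventricles by 1.22 (SE 0.15, edgeR adjusted p of 0.000497). Of 9 PRDM16 cofactors and partners 0 were called.

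Between the HO parts 0 genes of the 8 lists were called, as for all genes. The values of the ventricular regulators were mixed in sign, with Irx4 at 1.61 (SE 1.42), Irx1 at 1.81 (SE 1.498) and Cited1 at -1.98 (SE 0.96), and their median of 0.91 stood against 0.03 over all genes. Against the embryonic ventricles 7 of the 9 regulators were called lower in the ventricle-like parts and 1 higher, where 7.35% and 11.6% of genes were. The lowest were Cited1 (-5.29, SE 0.71) and Hey2 (-4.79, SE 0.22), and Hand1 and Prdm16, at -1.62 and -1.64, were by value nearer to the embryo than Irx1, Irx2, Irx3 and Irx5 (-1.92 to -3.41).

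**Figure D5:**
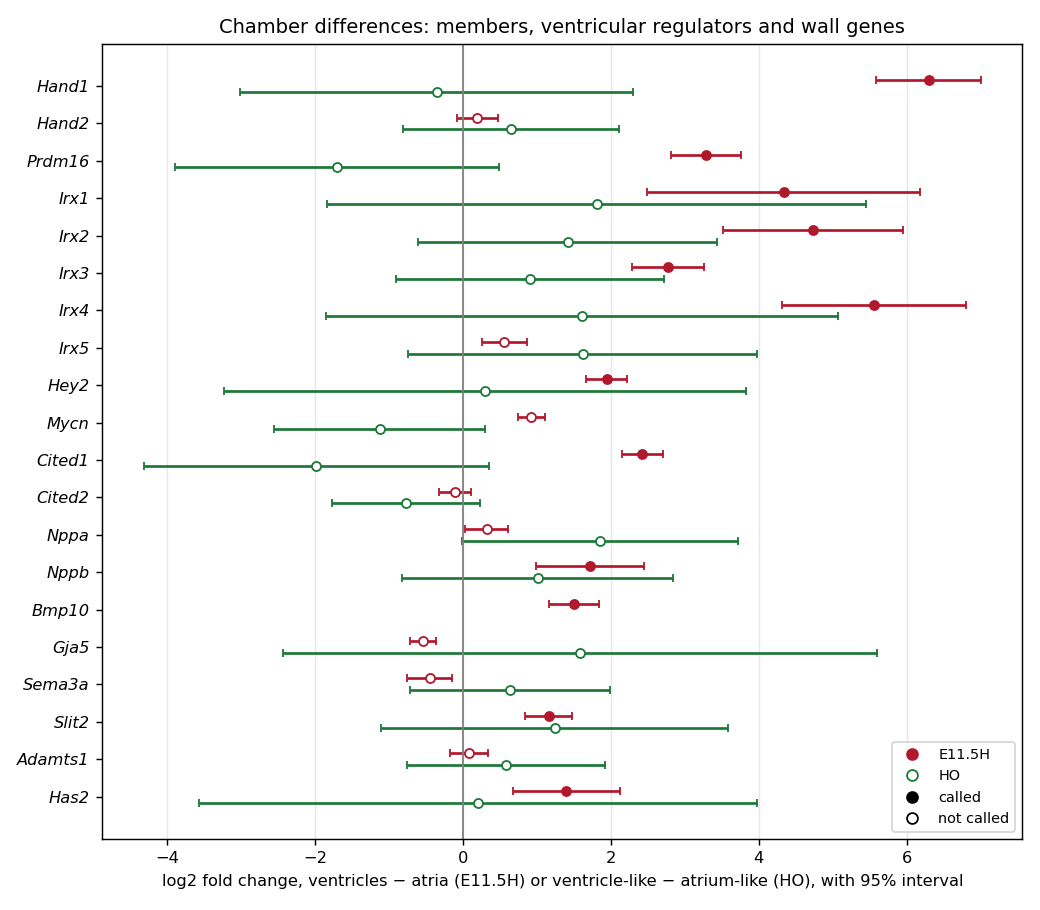
Log2 fold changes with 95% intervals of the members, 9 ventricular regulators and 8 wall genes, for ventricles over atria in E11.5H and for ventricle-like over atrium-like parts in HO (filled points were called). In E11.5H the values of 6.30 for Hand1 and 5.56 for Irx4 stand out, and all HO intervals are wide and uncalled. Bmp10 was too low in HO for a test.

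The genes with the most similar profile were ranked by Pearson's r of log2 CPM among 16493 other genes. Over the 12 libraries Hand1 was most like Snai3 (r = 0.924), Ldha (0.906), Slc16a3 (0.891), Sowaha (0.887) and Pkm (0.875), where Ldha, Slc16a3 and Pkm code for lactate dehydrogenase A, a lactate transporter and pyruvate kinase. Snai3 shared the low atria, at 0.318 FPKM, and the high ventricles, at 3.26 FPKM. Hand2 was most like Bnip2 (0.991), Memo1 (0.980), Zfp518b (0.979), Kansl2 (0.978) and Sufu (0.977), and Prdm16 most like Acot11 (0.933), Pfkl (0.905), Hprt (0.901), 5730460C07Rik (0.900) and Babam2 (0.896). Embryonic and HO libraries differ in cell makeup and in many genes, so these r hold that split. Over the 6 HO libraries alone the first gene was Lin28b for Hand1 (0.999), Layn for Hand2 (0.996) and Thrb for Prdm16 (0.997). With 6 points and this many genes, values near 1 come about readily, and no p is given.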

How the data were processed

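RNA from dissected chambers was sequenced by the authors, aligned with STAR to mm10 (GRCm38) per the labels and the study's methods, and deposited as an estimated count and an FPKM value per gene and library. The counting tool and its use of strand were not given in the sources used here. Of the deposited expected counts 23.3% were not whole (beyond 0.001), and all were rounded for the tests. FPKM were used as deposited by the authors, so a library rich in a few RNAs shows lower FPKM of the rest. Columns hold 12 libraries in 4 groups.

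Tests were made with edgeR 4.0.16 (R 4.3.3): TMM scaling, filterByExpr with a minimum count of 10, quasi-likelihood fits of each pair of groups and an interaction over 12 libraries, Benjamini-Hochberg adjustment over all genes tested, and a call at adjusted p under 0.05 with an absolute log2 fold change over 1. Scripts were tested on simulated data with 200 changed genes. Log2 CPM used a prior count of 2. The ratio of Hand1 to Hand2 used FPKM + 0.1 and an exact permutation test. Alternatives were DESeq2 1.42.0, limma 3.58.1 (voom), size factors by relative log expression, no filter, all libraries in 1 fit, scaling on 16 heart muscle genes, a replicate block and each library left out. The named genes were the members, their overlapping and nearest genes, the called members or largest values of 8 lists, and the 5 most similar genes of each member. Members and lists were chosen with earlier results of these data known. Promoter windows came from RefSeq, where 2 of the 3 members were matched. Total counts per library ranged from 23971258 to 30540993.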

Additional observations from a re-analysis of the deposited data

How the results depend on the processing

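Of 210 recomputed tests of the members 177 kept their direction and their side of the threshold. With all 12 libraries in 1 fit the embryonic chamber calls were lost (Hand1 6.31, adjusted p of 0.0639; Prdm16 3.30, 0.134), as was Hand1 in ventricle-like parts (-1.61). By limma-voom Hand1 (4.08) and Prdm16 (2.71) were not called in atrium-like parts, Prdm16 (-1.87) was called in ventricle-like parts, and Hand1 between HO parts turned to 0.84. DESeq2 called Prdm16 in ventricle-like parts (-1.62) and the interactions of Hand1 (-6.69) and Prdm16 (-5.04). Scaling on 16 heart muscle genes moved the median of all genes by -0.39 (E11.5H), -1.63 (HO), 3.71 (atrial), 2.50 (ventricular) and -1.23 (interaction). It turned Hand2 to -0.18 in E11.5H, -0.57 between HO parts, 2.31 (atrial, called, adjusted p of 0.00301), 1.93 (ventricular, called, 0.0139) and -0.39 (interaction), turned Hand1 to 0.83 (call lost, 0.0769) and Prdm16 to 0.55 in ventricle-like parts, and made Prdm16 between HO parts (-4.19) and the Hand1 interaction (-7.47) calls. A pseudocount of 1 gave a ratio difference of 4.63 in E11.5H, and between HO parts, where it was near 0, its sign changed (0.00657). The cause of these changes was not tested.

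The number of genes called in E11.5H, 712, was 30 with all libraries in 1 fit and 1309 with heart muscle scaling. Between HO parts it was 0, but 59 by DESeq2 and 1455 with that scaling, which gave 14068 (atrial, in place of 3821) and 13246 (ventricular, in place of 2859). The interaction count of 25 was 455 by DESeq2, 12 by limma-voom and 10 with that scaling.

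The HO parts come from the same organoids, but no label ties a replicate number to an organoid or embryo. Deviations of same-numbered HO parts correlated at 0.017, 0.589 and 0.360, while the first ventricle-like part correlated most with the second atrium-like part (0.137) and the first atrium-like part with the third ventricle-like part (0.436). The numbers were not taken as pairs. With a replicate block Hand1 between HO parts was 0.86 and Prdm16 in atrium-like parts 2.84 (adjusted p of 0.0530), and the interaction count was 5. The block changed no other call of a member.

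Leaving out 1 library gave log2 fold changes of 5.88 to 6.76 (Hand1), 0.13 to 0.31 (Hand2) and 3.23 to 3.38 (Prdm16) in E11.5H. Between HO parts the ranges were -0.88 to 2.07, 0.28 to 1.36 and -2.42 to -0.41. In atrium-like parts they were 2.60 to 5.56, -1.83 to -0.75 and 2.10 to 3.77, in ventricle-like parts -1.87 to -1.44, -0.89 to -0.44 and -2.38 to -1.27, and for the interaction -7.18 to -4.25, 0.06 to 1.15 and -5.70 to -3.74. For the ratio difference they were 5.56 to 6.28 (E11.5H) and -1.40 to 1.32 (HO). Counts of genes called were 538 to 765 (E11.5H), 1662 to 5495 (atrial), 1116 to 3725 (ventricular) and 2 to 216 (interaction).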

Other observations

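Relatives and partners of the members were counted between HO parts and embryonic chambers, where 24.8% (atrial) and 18.9% (ventricular) of all genes were called. Of the E protein partners 0 of 3 were called in either comparison, of the other bHLH genes 1 of 6 (Tcf21, -1.70, SE 0.38) and 1 of 5 (Tcf15, -2.63, SE 0.72), of the PRDM genes 1 and 2 of 10, and of the PRDM16 cofactors 2 and 3 of 9. Prdm1, a PRDM gene of germ cells, plasma cells and endoderm, exceeded its atrial level in the atrium-like parts by a log2 fold change of 6.76 (SE 1.58, edgeR adjusted p of 0.0221) and its ventricular level in the ventricle-like parts by 3.74 (SE 0.67, edgeR adjusted p of 0.0117). Mecom fell in the ventricle-like parts by 3.19 on the log2 scale (edgeR adjusted p of 0.0283). Of the 9 PRDM16 cofactors and partners, Cebpb and Pparg, both known from fat cells, were called higher in the atrium-like parts (3.79, SE 0.27, and 5.23, SE 0.57) and in the ventricle-like parts (3.96, SE 0.44, and 2.73, SE 0.62), while Ppargc1a was lower in the ventricle-like parts (-1.60, SE 0.34). The shares of all genes called higher were 16% and 11.6%.

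Of the 9 upstream factors and ligands of Hand genes, the atrium-like parts were called lower than the atria for 3 and higher for 0. These were Nkx2-5 (-3.77, SE 0.55), Tbx5 (-3.18, SE 0.37) and Mef2c (-1.96, SE 0.52), where 8.81% of genes were called lower. In ventricle-like parts Nkx2-5 (-2.35, SE 0.57) and Mef2c (-1.43, SE 0.11) were called lower. Gata4 was not called in either comparison (-0.54, SE 0.36, and -0.43, SE 0.35). Id4, lower in embryonic ventricles than in atria, was called higher in ventricle-like parts than in embryonic ventricles (2.83, SE 0.67, edgeR adjusted p of 0.0261). These are unlike comparisons. Between the HO parts 0 of 4 Id genes were called, as was so for all genes.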
